A study of Mus musculus with 2 samples.

Results

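*Myc* and 9 genes of nucleolar growth (*Srm*, *Odc1*, *Ncl*, *Npm1*, *Nop56*, *Nop58*, *Fbl*, *Dkc1* and *C1qbp*) were followed through single-cell transcriptomes of mouse acute myeloid leukemia. They were chosen by name, and all 10 were found among the 27998 genes counted. The leukemias came from lineage-depleted bone marrow (BM) cells that carried the *MLL-AF9* fusion oncogene from a retrovirus and were transplanted into lethally irradiated mice. Donor mice of both groups had *Kat2a* Flox/Flox alleles and received pIpC, which induces the Mx1 promoter. Donors of the *Kat2a* KO group were Mx1-Cre +/- and donors of the *Kat2a* WT group Mx1-Cre -/-, and their BM was taken 4 to 6 weeks later. Kat2a is a histone acetyltransferase, and the study asked how its loss changes leukemia cells and the cell-to-cell variability of their transcripts. BM of terminal leukemias was thawed and pooled, 5 leukemias for WT and 4 for KO, and live cells with the YFP reporter of the retrovirus were sorted for one 10x Genomics 3′ library per genotype, aimed at 6000 cells. No label ties a cell to its leukemia, so each genotype is 1 sample. No test between genotypes is possible, and all intervals are at the 95% level and reflect counting error alone.

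After cells with fewer than 500 detected genes were left out, the WT-labelled library had 3866 cells and the KO-labelled library 3545, with medians of 2588.5 and 1884 UMIs per cell. A UMI (unique molecular identifier) stands for 1 captured transcript. *Kat2a* itself went against the labels: it had 12.2 CPM (UMIs of each gene per 1000000 UMIs of the library; 10.2 to 14.3) in the WT-labelled library and 95.8 CPM (89.1 to 103) in the KO-labelled library. Cre excision leaves the last exon of *Kat2a* in the genome, so a 3′ assay need not show its loss; why the level was higher in the KO-labelled library was not tested. The genotype of each library was itself read from the study's code, since no GEO label ties barcodes to a genotype. The libraries are therefore called WT-labelled and KO-labelled throughout, and if that link were crossed, every direction between them would turn. They shared 28 cell barcodes, which were kept in both. The pools also differed in their mix of sexes, with *Xist* at 275 and 97.2 CPM and Y-linked genes at 13.5 and 104 CPM in the libraries labelled WT and KO, and *Dkc1* is on the X chromosome.

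MYC is a transcription factor that pairs with MAX on E-box sequences and raises the output of genes for growth, with ribosome production and polyamine synthesis among its textbook targets. The nucleolus is where ribosomal RNA is made, cut and modified and where ribosome subunits are first assembled. Small nucleolar RNAs guide the modifying enzymes in protein complexes, with fibrillarin at the core of the box C/D kind and dyskerin at the core of the box H/ACA kind. In myeloid cells these programs are high in dividing progenitors and fall as granulocytes mature.

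The 10 genes lie on 8 chromosomes and are all annotated as protein-coding (GENCODE M21, GRCm38). *Myc* is at chr15:61985391-61990374 on the plus strand. The polyamine genes *Srm* (chr4:148591503-148594993) and *Odc1* (chr12:17544794-17551505) are both on the plus strand. *Ncl* is at chr1:86344719-86359400 and *Npm1* at chr11:33152287-33163206, both on the minus strand. The box C/D genes *Nop56* (chr2:130274430-130279313), *Nop58* (chr1:59684971-59719044) and *Fbl* (chr7:28169710-28179269) are on the plus strand. *Dkc1* is at chrX:75095854-75109777 on the plus strand and *C1qbp* at chr11:70977836-70983026 on the minus strand.

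Reads of a 3′ assay come from the last bases of a transcript, and some of these genes share them with pseudogenes. Of the distinct 50-base stretches in the last 500 bases of the protein-coding transcripts, 67.4% were shared with another gene for *Fbl*, 38.8% for *Nop56*, 25.1% for *Npm1* and 17.7% for *Odc1*. The partners of *Nop56*, *Npm1* and *Odc1* were all processed pseudogenes, as was the main partner of *Fbl*. The share was below 2% for *Ncl*, *Nop58* and *Dkc1* and 0 for *Myc*, *Srm* and *C1qbp*. Levels of the first 4 genes are uncertain, since how reads from these stretches were placed was not tested.

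RefSeq promoter windows (250 bases before to 50 after the start site, GRCm38.p6) were matched for 6 of the 10 genes, *Odc1*, *Ncl*, *Nop56*, *Nop58*, *Dkc1* and *C1qbp*. The E-box CACGTG, the same on both strands, was in none of these 6 windows and in 7.15% of all 32851 windows. The variant CACGCG, searched on both strands like the others, was in the *Odc1* window and in 9.27% of all windows. Other variants that were searched are not reported here. These are matches of letters in a short window, and nothing follows from them about MYC binding. The *Odc1* matches are printed with their flanks, 5′ to 3′ on the plus strand with the motif in capitals as it reads on that strand, because *Odc1* had the lowest median co-variation with the other members in the WT-labelled library, as given further on. The *Odc1* matches start 180 and 101 bases before the RefSeq start site (chr12:17544681-17544710 and chr12:17544760-17544789).
Odc1 upstream match: ggtgatgtggtgCGCGTGcgcaggcctgcc
Odc1 downstream match: cgggtgggtgggCACGCGctgcgccccgcc

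Over all kept cells, the level of *Myc* was close in the libraries. It had 468 UMIs in the WT-labelled library, or 40.1 CPM (36.6 to 43.9), and 333 UMIs in the KO-labelled library, or 42.0 CPM (37.6 to 46.8). The log2 ratio of KO over WT was 0.07, with an interval (−0.14 to 0.27) that held 0. A *Myc* UMI was seen in 8.51% of WT-labelled and 6.80% of KO-labelled cells, and most of these cells had a single one. The libraries differ in UMIs per cell, and shares at equal depth are given further on.

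The polyamine genes were also close over all kept cells. *Srm*, the spermidine synthase, had 102 CPM (96.6 to 108) in the WT-labelled library and 99.9 CPM (93.0 to 107) in the KO-labelled library. *Odc1*, the ornithine decarboxylase that starts the pathway, had 40.6 CPM (37.0 to 44.4) and 37.1 CPM (33.0 to 41.6). Both log2 ratios, −0.03 (−0.17 to 0.10) for *Srm* and −0.13 (−0.34 to 0.08) for *Odc1*, had intervals around 0.

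The abundant nucleolar proteins went in opposite directions. *Ncl* encodes nucleolin, which binds pre-ribosomal RNA, and had 327 CPM (317 to 338) in the WT-labelled library and 232 CPM (222 to 243) in the KO-labelled library. *Npm1* encodes nucleophosmin, a histone and ribosome chaperone, and had 602 CPM (588 to 617) and 768 CPM (749 to 788). The log2 ratios were −0.49 (−0.57 to −0.41) for *Ncl* and 0.35 (0.30 to 0.40) for *Npm1*. *Ncl* was detected in 42.2% of WT-labelled cells and 28.0% of KO-labelled cells, whereas *Npm1* was detected in 56.1% and 55.1%.

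The small nucleolar ribonucleoprotein genes differed less. *Nop56*, a scaffold of the box C/D complex, had 86.4 CPM in the WT-labelled library and 85.7 CPM in the KO-labelled library, a log2 ratio of −0.01 (−0.15 to 0.13). *Nop58*, its partner scaffold, had 44.3 and 51.4 CPM, a log2 ratio of 0.21 (0.02 to 0.40). *Fbl*, the methyltransferase of the complex, had 195 and 220 CPM, a log2 ratio of 0.17 (0.08 to 0.26). For *Nop58* and *Fbl* the interval lay above 0, and for *Nop56* it held 0. *Dkc1*, the pseudouridine synthase of the box H/ACA complex, had 58.7 and 60.7 CPM, a log2 ratio of 0.05 (−0.12 to 0.22).

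*C1qbp*, a mitochondrial matrix protein needed for mitochondrial translation, stood furthest above 0. It had 163 CPM (156 to 171) in the WT-labelled library and 224 CPM (213 to 234) in the KO-labelled library, a log2 ratio of 0.46 (0.36 to 0.55). Summed over the 10 genes, the members reached 1660 CPM (1637 to 1684) and 1821 CPM (1791 to 1851). The log2 ratio of the sum was 0.13 (0.10 to 0.16). None of the 10 genes differed by 1.5-fold or more in either direction. Among the 2737 genes detected in 10% or more of kept cells, here called robust genes, 3.54% were higher by 1.5-fold or more in the KO-labelled library and 3.43% were lower, and their median log2 ratio was 0.07. Of the 10 members, 7 are robust genes, and *Myc*, *Odc1* and *Nop58* fell below the limit.

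**Figure D1:**
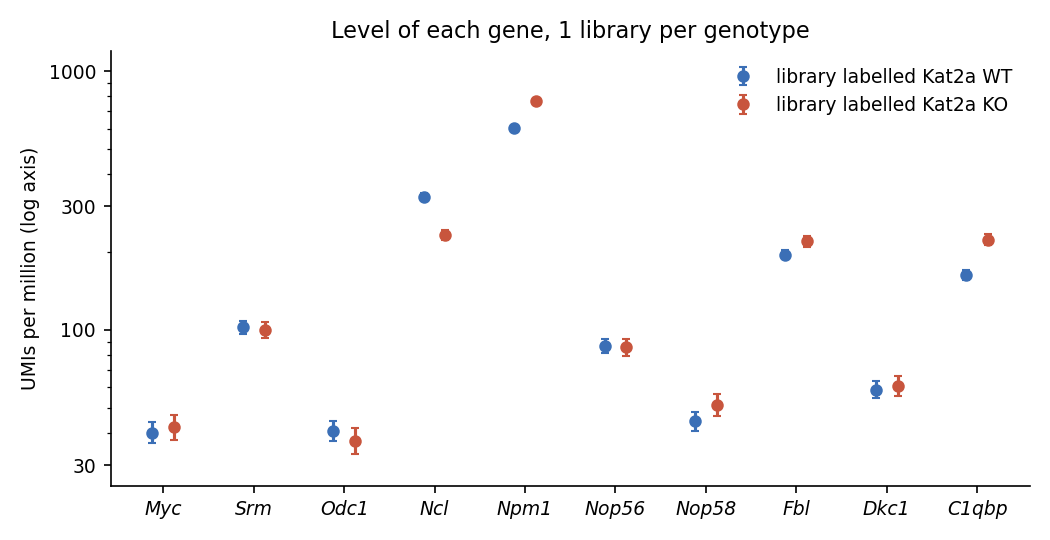
Level of each gene in CPM (log axis) in the library labelled *Kat2a* WT (blue) and the library labelled *Kat2a* KO (red), with 95% Poisson intervals that cover counting error only. The points are close for *Myc*, *Srm*, *Odc1*, *Nop56* and *Dkc1*, whereas *Ncl* is lower (232 against 327 CPM) and *C1qbp* higher (224 against 163 CPM) in the KO-labelled library.

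These ratios moved with the depth of the cells compared. In 2784 cells of each library matched on total UMIs (medians 2128 and 2108), the log2 ratio of the sum was 0.50 (0.46 to 0.54). There, *C1qbp* reached 0.91, *Npm1* 0.70, *Dkc1* 0.67 and *Nop58* 0.66, so that 4 of the 10 genes were 1.5-fold or more higher, where 8.59% of robust genes were, and 0 were lower by that much, where 5.85% were. *Srm* was at 0.50 (0.34 to 0.66), *Fbl* at 0.41, *Nop56* at 0.35 and *Myc* at 0.33 (0.08 to 0.57), and their intervals lay above 0. *Odc1* was at 0.16 (−0.10 to 0.42). *Ncl* was at −0.12 in the matched cells and was the member that remained below 0. The median of robust genes was 0.12 in these cells. Thinning to 1000 UMIs, which left out 66 WT-labelled and 194 KO-labelled cells below that depth, gave 0.21 (0.15 to 0.27) for the sum. The part of capture efficiency and of cell mix in the difference between these settings was not tested.

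Total UMIs of a cell went with its level of these genes in both libraries. Cells were split into 5 groups by total UMIs within each library. In the WT-labelled library the summed level of the 10 genes was 677, 745, 1150, 1488 and 2552 CPM from the shallowest to the deepest group. In the KO-labelled library it was 1272, 1042, 1251, 1492 and 2675 CPM. The steps were upward throughout the WT-labelled library, whereas in the KO-labelled library the shallowest group was above its neighbour. The deepest group was 3.77-fold (3.49 to 4.08) above the shallowest in the WT-labelled library and 2.103-fold (1.97 to 2.25) in the KO-labelled library. Robust genes had medians of 1.20-fold and 1.04-fold.

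*Myc* followed total UMIs more steeply in the WT-labelled library. Its level was 9.77 CPM (4.69 to 18.0) in the shallowest WT-labelled group and 60.6 CPM (53.5 to 68.3) in the deepest, a ratio of 6.20 (3.32 to 13.1). In the KO-labelled library it was 28.4 CPM (17.8 to 43.0) and 53.7 CPM (45.7 to 62.6), a ratio of 1.89 (1.21 to 3.10). The intervals of these ratios did not overlap. *Dkc1* showed the same contrast, with ratios of 10.5 (5.65 to 22.0) and 2.03 (1.43 to 2.95), as did *Fbl*, with 2.35 (1.96 to 2.85) and 1.07 (0.92 to 1.26). So did *Npm1* (3.75 and 2.22), *Ncl* (3.64 and 2.41) and *C1qbp* (5.25 and 2.61), whereas intervals overlapped for *Srm*, *Nop56*, *Nop58* and *Odc1*. The groups span unlike depths, with median UMIs from 1357 to 5230 in the WT-labelled library and from 1109 to 3774 in the KO-labelled library. *Odc1* had the lowest ratio in the WT-labelled library, 1.70 (1.14 to 2.63), and 1.22 (0.79 to 1.96) in the KO-labelled library. At 1.5-fold or more were 10 of 10 genes in the WT-labelled library, where 34.3% of robust genes were, and 8 of 10 in the KO-labelled library, where 21.2% were.

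**Figure D2:**
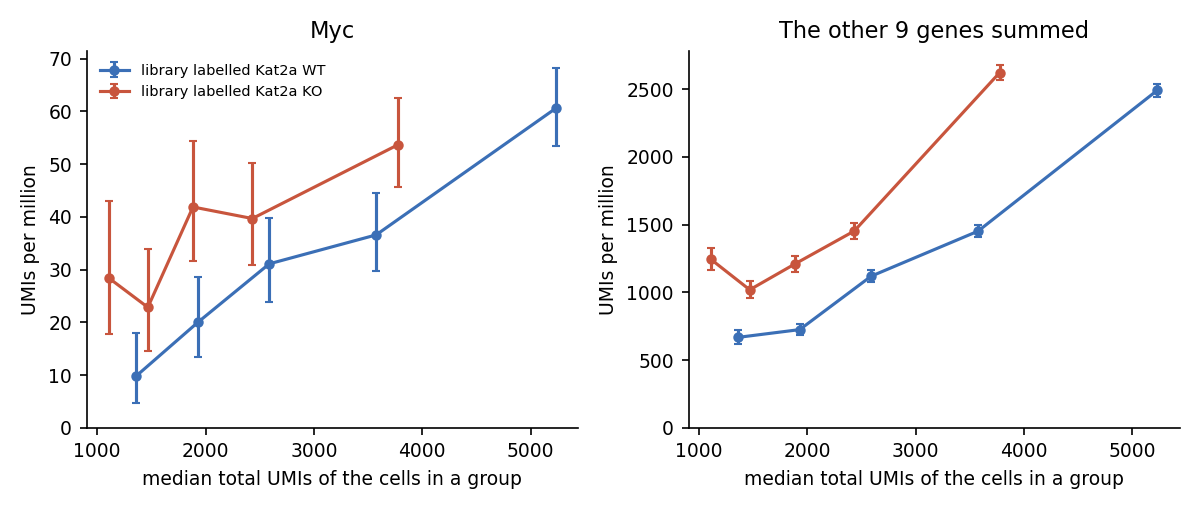
Level in CPM of *Myc* (left) and of the other 9 genes summed (right) in 5 groups of cells by total UMIs within each library, against the median total UMIs of the group, with 95% Poisson intervals. *Myc* runs from 9.77 to 60.6 CPM in the WT-labelled library and from 28.4 to 53.7 CPM in the KO-labelled library.

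Because of this, co-variation with *Myc* was measured at equal depth. Each cell with 1000 or more UMIs was thinned at random to 1000 UMIs, and the mean of a gene in cells that kept a *Myc* UMI was divided by its mean in cells that did not. This left 107 *Myc*-detected cells of 3800 in the WT-labelled library (2.82%) and 116 of 3351 in the KO-labelled library (3.46%). In the granulocyte-like cluster 4, a population that should have little *Myc*, the share at the same depth was 0.208% (0.00527 to 1.16%) and 2.11% (0.577 to 5.30%). The share of all KO-labelled cells was within the interval of their cluster 4 cells, which rests on 4 of 190 cells. The share of all WT-labelled cells was above the interval of theirs. In cluster 12, also granulocyte-like, the shares were 1.19% (0.325 to 3.02%) and 0.840% (0.0213 to 4.59%). There, both intervals held the share of all cells of the library, so the contrast between the libraries depends on the cluster.

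*Myc*-detected cells held more of the other growth genes. The 9 genes summed had 2336 UMIs per 1000 *Myc*-detected cells and 1236 per 1000 others in the WT-labelled library, a ratio of 1.89 (1.66 to 2.15). In the KO-labelled library they had 1948 and 1443, a ratio of 1.35 (1.18 to 1.54). The ratio was 1.5 or more for 8 of the 9 genes in the WT-labelled library, where 15.6% of robust genes reached that. It was so for 4 of the 9 in the KO-labelled library, where 10.3% did. Robust genes had medians of 1.04 and 1.03.

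*Srm* had the highest ratio in both libraries, 2.98 (1.78 to 4.70) and 2.32 (1.37 to 3.71). *C1qbp* had 2.42 in the WT-labelled library and 1.61 in the KO-labelled library, *Npm1* had 1.91 and 1.32, and *Nop56* had 1.96 and 2.18. *Dkc1* (2.02 and 1.57) and *Ncl* (1.70 and 1.24) were above 1 in both libraries, with intervals that held 1 for *Dkc1* in both and for *Ncl* in the KO-labelled library. *Nop58* (1.59 and 0.669), *Fbl* (1.60 and 0.849) and *Odc1* (0.704 and 1.06) were on opposite sides of 1 in the libraries. *Odc1* rests on 3 UMIs in the *Myc*-detected cells of the WT-labelled library.

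Single-gene ratios depended on the random draw of the thinning. Over 9 further draws the ratio of *Srm* in the WT-labelled library ranged from 1.23 to 3.98 with a median of 2.52, and that of *Nop58* in the same library from 1.69 to 4.42. The medians of the further draws for *Odc1* were 1.31 and 1.37, above 1 in both libraries, whereas that of *Fbl* in the KO-labelled library was 0.980. The sum was steadier, from 1.60 to 1.96 in the WT-labelled library and from 1.22 to 1.42 in the KO-labelled library.

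All UMIs can be used when *Myc*-undetected cells are instead weighted to the total UMIs of the detected ones. This compared 329 detected with 3537 undetected WT-labelled cells, and 241 with 3304 KO-labelled cells. The sum was then 1.43-fold (1.39 to 1.47) and 1.22-fold (1.16 to 1.27) higher in *Myc*-detected cells. *Nop58* (1.78), *Srm* (1.73), *Dkc1* (1.64) and *Nop56* (1.59) were 1.5-fold or more higher in the WT-labelled library, where 1.53% of robust genes were. None of the 9 genes reached that in the KO-labelled library, where 1.24% did and *Dkc1* was highest (1.31). *Odc1* was at 1.01 (0.78 to 1.28) and 0.970 (0.65 to 1.39). *Myc*-detected cells still differed in depth between the libraries, with medians of 4236 and 2606 UMIs.

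**Figure D3:**
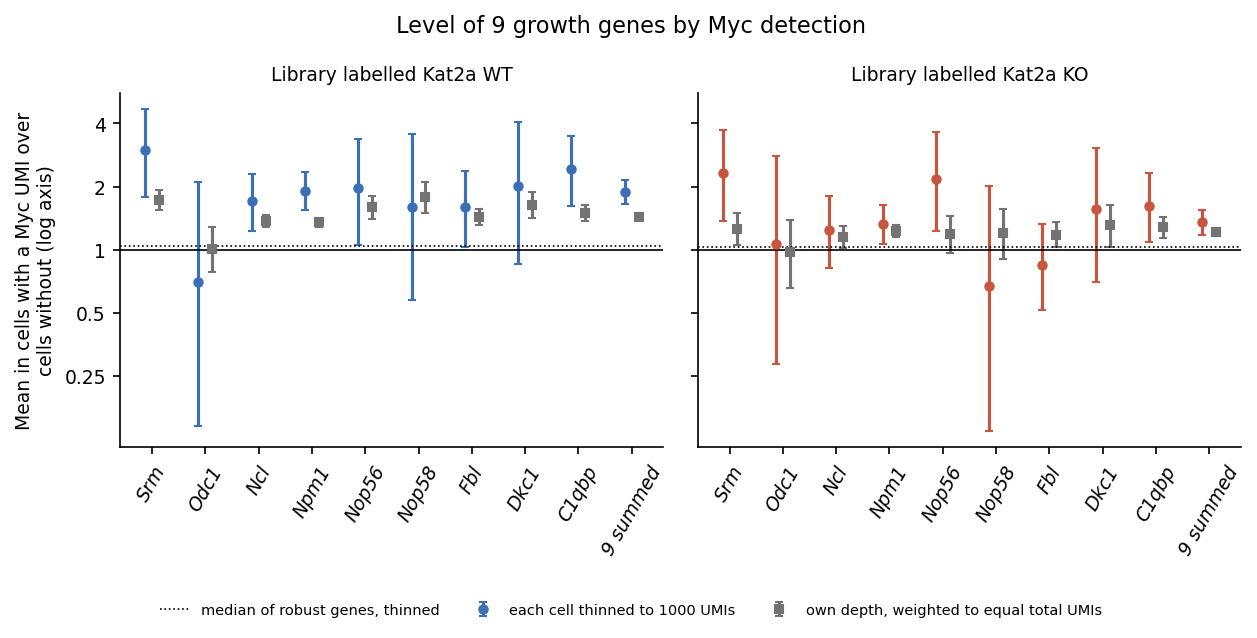
Mean of each gene in cells with a *Myc* UMI over its mean in cells without (log axis), in each library, with 95% counting intervals. Each cell was thinned to 1000 UMIs (circles) or kept at own depth with undetected cells weighted to equal total UMIs (squares). Intervals of the squares cover the counting error of the detected cells only. For the 9 genes summed the circles are at 1.89 and 1.35 and the squares at 1.43 and 1.22, and *Odc1* is near 1 at own depth in both libraries.

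Other genes moved with *Myc* detection too. The 11 granulocyte markers summed were lower in *Myc*-detected cells, 0.417-fold in the WT-labelled library and 0.645-fold in the KO-labelled library, and all 7 of them that are robust genes were below 1 in both libraries. The summed markers had 39355 UMIs per 1000 *Myc*-detected cells and 94284 per 1000 others in the WT-labelled library, and 54621 and 84642 in the KO-labelled library. The 5 primary granule markers of early granulocyte progenitors were 1.90-fold and 1.24-fold higher, with 5 of 5 above 1 in both in thinned cells and 5 and 3 at own depth. Of all robust genes, 54.0% and 53.5% were above 1 in thinned cells and 62.2% and 55.1% at own depth. The 7 erythroid markers were lower, 0.112-fold and 0.249-fold, and none of them was a robust gene. The B cell markers were at 1.56 (0.66 to 3.14) and 4.08 (2.70 to 5.96), with *Cd79b* alone among them a robust gene and *Pax5* at 0 UMIs. The T or NK cell markers were 2.23-fold and 1.72-fold higher, with *Nkg7* alone a robust gene. Over all kept cells *Nkg7* had 2290 and 2512 UMIs. By contrast, *Cd3d* had 8 and 2, *Cd3e* 3 and 2, *Cd3g* 1 and 2 and *Gzma* 1 and 0. That sum is therefore almost *Nkg7* alone, which is also among the leading genes of cluster 6, described further on. Immediate early genes summed were at 0.648 (0.60 to 0.70) and 0.954 (0.90 to 1.01). At own depth 6 and 9 of the 10 that are robust were above 1, where 62.2% and 55.1% of all robust genes were. S phase genes summed were at 1.48 (1.29 to 1.68) and 1.06 (0.93 to 1.20), and mitotic genes at 0.616 (0.48 to 0.77) and 0.635 (0.52 to 0.77). Over those that are robust genes, the medians were 1.499 and 0.976 for S phase genes and 0.496 and 0.586 for mitotic genes. Of the 12 robust S phase genes, 12 and 3 were above 1 at own depth, where 62.2% and 55.1% of all robust genes were. Their medians there were 1.28 and 0.868. The 8 robust mitotic genes were all below 1 at own depth in both libraries, with medians of 0.586 and 0.710. When *Myc*-undetected cells were weighted to the clusters of the detected ones, the ratio of the 9 genes summed was 1.27 (1.12 to 1.44) in the WT-labelled library and 1.14 (0.99 to 1.29) in the KO-labelled library. The part of these cell states in the ratios at equal depth was not tested further.

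The 10 genes also co-varied among themselves. The co-variation ratio of a pair is the mean product of both thinned counts over the product of their means, and is 1 without co-variation. The median over the 45 pairs was 1.68 in the WT-labelled library and 1.51 in the KO-labelled library. At 1.5 or more were 35 pairs in the WT-labelled library, where 3.02% of all pairs of robust genes were, and 24 pairs in the KO-labelled library, where 3.37% were. Ratios of genes with few UMIs scatter more, so the background of each gene is also needed: 15.3% of robust genes reached 1.5 with *Myc* and 4.06% with *Npm1* in the WT-labelled library.

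*Dkc1* had the highest median ratio with the other 9 genes, 2.05 in the WT-labelled library and 1.99 in the KO-labelled library, and all its pairs were above 1 in both. *Nop58* with *Dkc1* was the highest pair in the WT-labelled library (3.09), where 12 cells held both and 4.41 would from their shares. *Dkc1* with *C1qbp* was the highest in the KO-labelled library (2.73), with 46 cells against 19.2. *Srm* with *Nop56* was high in both libraries (2.55 and 2.40). *Odc1* had the lowest median in the WT-labelled library (1.44) and a low one in the KO-labelled library (1.26), and *Fbl* had the lowest in the KO-labelled library (1.22). The 5 KO-labelled pairs at or below 1 included *Myc* with *Nop58* (0.609) and *Srm* with *Nop58* (0.743).

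**Figure D4:**
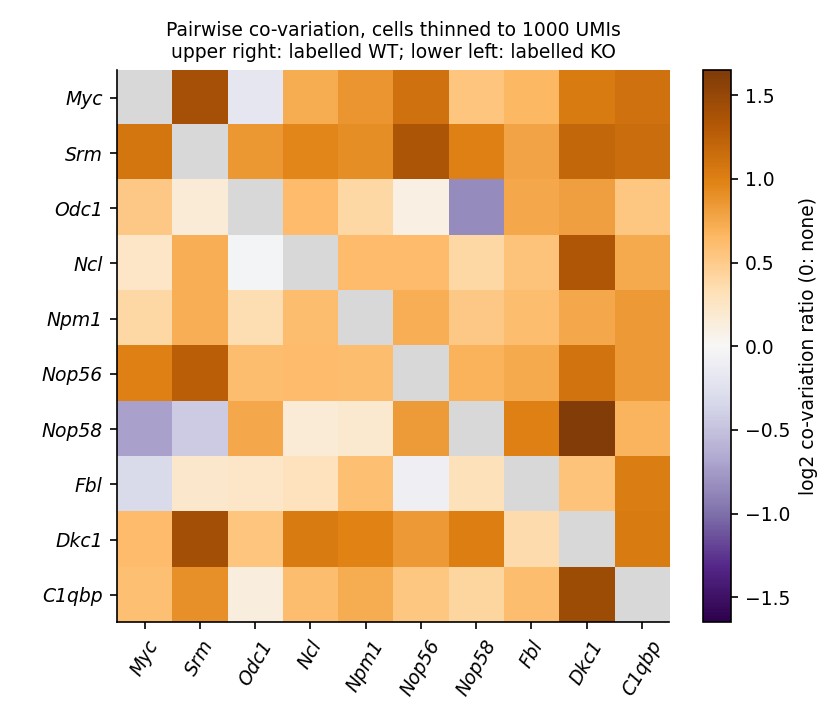
Log2 co-variation ratio of each pair of genes in cells thinned to 1000 UMIs, with the WT-labelled library above the diagonal and the KO-labelled library below it. White is no co-variation, and orange fills most squares on both sides, with medians of 1.68 and 1.51 before the log.

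Cell-to-cell variability was compared as variance over mean of the thinned counts, where counting alone gives 1. The members had a median of 1.24 in the WT-labelled library, beside 1.17 for robust genes, and of 1.297 in the KO-labelled library, beside 1.27. *Myc* was low in both, at 1.13 and 1.16. *Npm1* (1.54 and 2.11), *Fbl* (1.20 and 2.03) and *Srm* (1.29 and 1.94) were higher in the KO-labelled library, and *Ncl* (1.42 and 1.28) was lower. Relative spread, the square root of the variance divided by the mean, gave another picture. By log2 ratio of KO over WT it was higher for *Srm* (0.22), *Fbl* (0.19), *Nop56* (0.13), *Ncl* (0.10), *Npm1* (0.04) and *Odc1* (0.04). It was lower for *Dkc1* (−0.21), *Myc* (−0.15), *C1qbp* (−0.06) and *Nop58* (−0.04), beside a median of 0.02 for robust genes. A few cells carried much of the differences in variance over mean. Without the 10 cells with most UMIs of the gene, the values were 1.37 and 1.43 for *Npm1*, 1.10 and 1.29 for *Fbl*, 1.15 and 1.22 for *Srm* and 1.157 and 1.161 for *Ncl*.

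Some of these cells held a single member in excess. One KO-labelled cell had 23 *Srm* UMIs among 1567, with 1 UMI of the other 9 members and 163 UMIs of *Ngp*, a granule protein gene of maturing granulocytes. Another had 32 *Fbl* UMIs among 1808, with 0 UMIs of the other members and 53 of *Ngp*. For *Npm1*, a pair of KO-labelled cells had 28 UMIs each, among 1094 and 1269. These are between 1.47% and 2.56% of a cell's UMIs, whereas the highest share of any member in a WT-labelled cell with 1000 or more UMIs was 0.807%, for *Ncl*.

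The cells of both libraries were grouped into 12 clusters without using any member or other growth gene, so that these genes did not choose the clusters. Cluster 2 had the highest summed level in both libraries, 3562 CPM (3478 to 3647) in the WT-labelled library and 3834 CPM (3730 to 3939) in the KO-labelled library. *C1qbp*, *Dkc1* and *Srm* were among its 10 leading genes, beside the adenine nucleotide carrier *Slc25a4*, the mitochondrial chaperonin *Hspd1* and the myeloid transcription factor *Irf8*. In it, 15 of 16 S phase genes were raised. Its cells were also deep, with medians of 4750 and 3864.5 UMIs.

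The lowest levels were in granulocyte-like cells. Cluster 4, led by *Ltf* and *Mmp9* with all 11 granulocyte markers raised, had 266 CPM (234 to 301) in the WT-labelled library and 594 CPM (511 to 688) in the KO-labelled library. Cluster 12, led by *Stfa* family genes with 10 of 11 granulocyte markers raised, had 470 CPM (421 to 523) and 544 CPM (454 to 646). From the highest to the lowest cluster the range was 13.4-fold in the WT-labelled library and 7.05-fold in the KO-labelled library. In the WT-labelled library *Dkc1* ran from 153 CPM (136 to 171) in cluster 2 to 2.12 CPM (0.257 to 7.66) in cluster 4, where it had 2 UMIs. *Odc1* spanned the least in both libraries, 4.97-fold and 4.94-fold.

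Between these ends lay the other clusters. Cluster sizes differed between the libraries. Of thinned WT-labelled and KO-labelled cells, cluster 1, led by *Ly6e* and *H2-DMa*, held 4.66% and 14.1%. Cluster 9, led by *Camp* and *Fcnb*, held 3.53% and 13.5%, whereas cluster 4 held 12.6% and 5.67% and cluster 12 held 8.84% and 3.55%. Cluster 6, with all 5 primary granule markers raised and led by *Mpo*, *Ctsg* and *Elane*, had 1953 and 2145 CPM of the 10 genes. Cluster 10, led by *Elane* and mitotic genes, had 1978 and 1794 CPM. Cluster 3, where all 14 mitotic genes and 6 of 11 granulocyte markers were raised, had 871 and 1010 CPM. The monocyte or macrophage-like clusters 5 and 8 had 799 and 1072 CPM and 1526 and 1634 CPM. Cluster 11, with 13 of 14 mitotic genes and 5 of 11 granulocyte markers raised, had 1239 and 1527 CPM. Both mitotic clusters with granulocyte markers were thus below cluster 10, which has primary granule markers, in both libraries.

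The cluster with the highest *Myc* level depended on library and depth. In CPM, *Myc* of the WT-labelled library was highest in cluster 2, at 77.8 CPM (65.8 to 91.2), and lowest in cluster 4, at 4.24 CPM (1.16 to 10.9). In the KO-labelled library it was highest in cluster 7, at 76.8 CPM (56.0 to 103), where the 10 genes summed to 1270 CPM, and it had 50.2 CPM (38.9 to 63.6) in cluster 2, with overlapping intervals. In thinned cells the share with a *Myc* UMI was highest in cluster 6 in both libraries, 6.80% and 6.28%, beside 6.19% and 5.47% in cluster 2 and 2.68% and 5.21% in cluster 7. Cluster 7, led by *Clec4b2*, *Cdkn1c* and *Scnn1a*, was left unnamed. Over the 24 profiles of cluster and library, Pearson's r with the summed other members was 0.68 for *Myc*, 0.50 for *Odc1* and from 0.78 to 0.96 for the other 8, beside a median of 0.45 for robust genes. These profiles share libraries and depth, and r is given as a description.

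Within clusters, *C1qbp* was higher in the KO-labelled library in 12 of 12, *Npm1* in 11, *Fbl* and *Dkc1* in 9 and *Myc* and *Nop58* in 8. The smallest of the *C1qbp* log2 ratios was 0.002, which is no difference. The median log2 ratio of *Myc* over clusters was 0.71, with a range from −1.17 to 2.44. That median counts every cluster alike, also those with little *Myc*, such as cluster 4 at 4.24 CPM in the WT-labelled library. With clusters at equal shares in both libraries, the log2 ratio of *Myc* was 0.22. *Ncl* was lower in 11 of 12 clusters, *Odc1* in 8 and *Nop56* in 7. *Srm* was higher in 6 and lower in 6. The order of the libraries for *C1qbp*, *Npm1* and *Ncl* was therefore also seen within most clusters. With every cluster given the same share in both libraries, the log2 ratio of the sum was 0.13, as before.

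**Figure D5:**
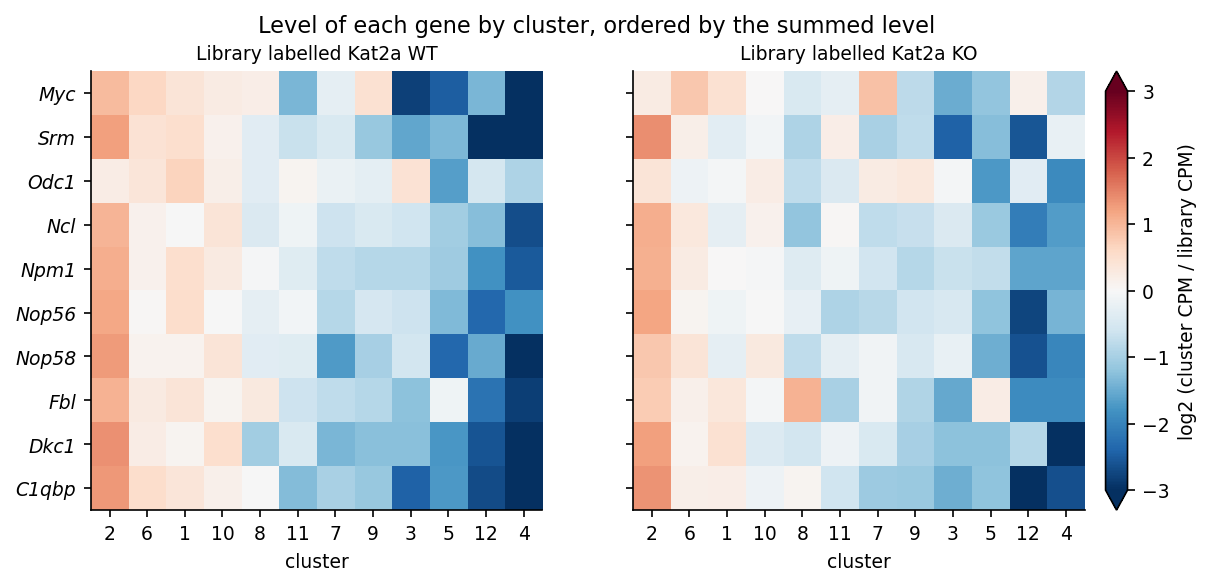
Log2 ratio of the CPM of each gene in a cluster to its CPM in the whole library, for 12 clusters ordered by the summed level, with the WT-labelled library on the left and the KO-labelled library on the right. The scale ends at 3 in both directions. Cluster 2 is the highest for most genes, and the granulocyte clusters 12 and 4 the lowest.

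Genes most like *Myc* were ranked by the smaller of the libraries' ratios of *Myc*-detected over *Myc*-undetected thinned cells. Of 2735 genes ranked, the first 10 were *Nip7*, *Srm*, *1500011K16Rik*, *Farsa*, *Gar1*, *Mrpl42*, *Sfxn1*, *Eef1e1*, *Dynll2* and *Nop56*. *Nip7* (2.64 and 2.54) encodes a ribosome assembly factor, *Gar1* (2.71 and 2.099) a core protein of the box H/ACA complex of *Dkc1*, and *Farsa* (2.20 and 2.23) a subunit of an aminoacyl-tRNA synthetase. Only 3 of the 10, *Gar1*, *1500011K16Rik* and *Nip7*, were also among the first 10 at own depth, so most places in this order were not stable. The 7 members ranked were at places 2 (*Srm*), 10 (*Nop56*), 45 (*C1qbp*), 57 (*Dkc1*), 206 (*Npm1*), 321 (*Ncl*) and 1457 (*Fbl*) in thinned cells. At own depth they were, in the same order, at places 60, 147, 45, 25, 79, 235 and 162.

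Genes most like the other 9 members were ranked by r over the 24 profiles. The first 10 of 2730 were *Set*, *Snrpf*, *Tomm20*, *Mrps28*, *Nsun2*, *Eif4a1*, *Nhp2*, *Mrpl12*, *Hmga1* and *Impdh2*, with r from 0.95 to 0.97. *Nhp2* encodes another core protein of the box H/ACA complex, *Nsun2* a methyltransferase of transfer RNA, *Eif4a1* a translation initiation helicase and *Impdh2* the enzyme that limits guanine nucleotide synthesis. *Snrpf* belongs to the spliceosome and *Mrps28* and *Mrpl12* to the mitochondrial ribosome.

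Further genes of the same pathways were taken from lists of textbook members. Together the growth lists hold 125 genes beside the members, and 45 of them are robust genes. Of these, 3 were 1.5-fold or more higher in the KO-labelled library and 0 lower, and their median log2 ratio was 0.20, beside 0.07 for all robust genes. The 3 were *Nme2* (0.84), *Ranbp1* (0.69) and *Npm3* (0.62), a nucleoside diphosphate kinase, a regulator of nuclear transport and a relative of nucleophosmin. With *Myc* detection, 23 of the 45 had a ratio of 1.5 or more in the WT-labelled library (15.6% of all robust genes) and 12 in the KO-labelled library (10.3%), with medians of 1.51 and 1.28. At own depth 6 and 0 did (1.53% and 1.24%), with medians of 1.26 and 1.13.

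Among box H/ACA genes, all 4 that are robust genes, *Dkc1* included, had log2 ratios above 0, where 60.2% of all robust genes did. The median of the 4 was 0.23, beside 0.07 for all robust genes. In thinned cells their ratios with *Myc* detection were 1.5 or more in 4 of 4 in the WT-labelled library and 3 of 4 in the KO-labelled library. At own depth 2 and 0 reached that, beside the shares of robust genes given for the members. The interval of *Dkc1* held 0. *Nop10*, which encodes a small core protein of the complex, had 268 and 383 CPM, a log2 ratio of 0.51 (0.44 to 0.59). Of 15 ribosome assembly factors that are robust genes, 13 had ratios with *Myc* detection above 1 in the WT-labelled library, where 54.0% of all robust genes did, and 14 in the KO-labelled library, where 53.5% did. Among genes of that list with 100 or more UMIs in each library, the largest log2 ratios by size belonged to genes below the robust limit, *Rrp1b* (24.3 and 13.9 CPM), *Wdr3* (24.1 and 14.3 CPM) and *Nop14* (22.6 and 14.4 CPM), all lower in the KO-labelled library.

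For the MYC network and the polyamine genes, the number with a ratio with *Myc* detection above 1 changed with how depth was treated. *Max*, the obligate partner of MYC, had 98.6 and 129 CPM, a log2 ratio of 0.39 (0.26 to 0.51), and ratios with *Myc* detection of 0.420 and 0.668 in thinned cells but 1.15 and 1.20 at own depth. Of the 3 genes of the network that are robust, 0 in the WT-labelled library and 1 in the KO-labelled library had a ratio above 1 in thinned cells, and 2 and 3 did at own depth. Of the 7 polyamine genes that are robust, *Srm* included, 4 and 2 had a ratio above 1 in thinned cells and 5 in each library at own depth. Of all robust genes, 54.0% and 53.5% were above 1 in thinned cells and 62.2% and 55.1% at own depth. Both lists are small, and the change with depth was not tested. *Sat1*, which acetylates polyamines for breakdown and export, had 612 and 458 CPM, a log2 ratio of −0.42 (−0.47 to −0.36), and *Oaz1*, the antizyme that sends ornithine decarboxylase to degradation, had 2464 and 3063 CPM, a log2 ratio of 0.31 (0.29 to 0.34).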

How the data were processed

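Single-cell libraries of pooled leukemias were made with the 10x Genomics 3′ assay, 1 per genotype. The deposited matrix holds UMI counts of 27998 genes in 4069 WT-labelled and 4240 KO-labelled cells, which the authors made with Cell Ranger (version 1.3.1 per the submitters' processing notes) on mm10. The number that ends a barcode separates the libraries, but no GEO label links it to a genotype. The link was taken from the study's published code, where the ending 1 marks Cre-positive cells, hence KO, and 2 Cre-negative cells, hence WT. *Kat2a* goes against it, so each direction between genotypes rests on that code. The submitters' notes and the study's methods give different versions of Cell Ranger, so which made the matrix is uncertain. The filter of 500 detected genes left 3866 and 3545 cells, with 11669427 and 7920256 UMIs. No cell was removed as a doublet. Depth limits the members: at these totals a gene with 40 CPM has under 500 UMIs in a library.

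Levels are UMIs per 1000000 UMIs in a library or cluster. Intervals are exact Poisson for levels, exact binomial for shares of cells and conditional binomial for ratios of counts, at 95%, and they cover counting error only. Ratios with weighted *Myc*-undetected cells, at own depth or by cluster, have Poisson intervals of the *Myc*-detected cells alone. These leave out the counting error of the undetected cells. Cells with 1000 or more UMIs were thinned without replacement to 1000 (random seed 1), and 9 further draws were made. At own depth, *Myc*-undetected cells were weighted within 10 strata of total UMIs. Clusters came from k-means (12 clusters, 20 principal components of log-normalized counts, members and growth lists left out) and were read against marker lists. Since each genotype is 1 sample, no test was run, and differences are described by a 1.5-fold limit beside the share of robust genes past it. Scripts used Python 3.11.15 with numpy 2.4.6, scipy 1.17.1, pandas 2.3.3 and scikit-learn 1.9.0 and were checked on simulated counts.

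The members and lists were chosen with earlier results of these data known. Genes named are the 10 members, *Kat2a*, the 10 genes most like *Myc*, the 10 most like the other members, and up to 3 genes per list with the largest log2 ratio by size and up to 3 with the largest *Myc* ratio, among genes with 100 or more UMIs in each library. The cells with most UMIs of a member, the share of robust genes in matched cells, the split by transcript length, the motifs and the setting without the 10 cells with most member UMIs were chosen after values were seen, as were the markers and cluster-leading genes named as context.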

Additional observations from a re-analysis of the deposited data

Results flagged for a closer look

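In thinned cells, 3 members had ratios of *Myc*-detected over *Myc*-undetected cells on opposite sides of 1 in the libraries. *Odc1* had 0.704 in the WT-labelled library and 1.06 in the KO-labelled library, *Nop58* had 1.59 and 0.669, and *Fbl* had 1.60 and 0.849. The differences between the libraries were not tested. At own depth, *Nop58* (1.78 and 1.20) and *Fbl* (1.43 and 1.18) were above 1 in both libraries, and *Odc1* had 1.01 and 0.970.

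Cells with fewer than 500 detected genes entered no comparison except the setting with every deposited cell. They held the 10 genes at 224 CPM (166 to 295) in 203 WT-labelled cells and at 526 CPM (473 to 584) in 695 KO-labelled cells, below the levels of the kept cells. *Npm1* (207 CPM) and *Fbl* (110 CPM) made up most of the KO-labelled sum, and *Myc* had 0 UMIs in the WT-labelled and 5 in the KO-labelled cells. The exact upper limit for 0 UMIs in the WT-labelled cells is 16.5 CPM. The difference between the libraries was not tested.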

How the results depend on the processing

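No paired analysis was possible because each genotype is 1 library. Of 65 alternatives to summary results, 45 stayed close and 20 moved. List medians near 0 changed sign for mitochondrial genes (below), the MYC network (0.035 to −0.040 in thinned cells) and RNA polymerase I (−0.039 to 0.048 with genes in 5% of cells). Of 224 for single genes, 46 moved and 4 reversed: in the lowest of the 9 further thinning draws the *Myc* ratio was 0.795 for *Nop56* and 0.963 for *Fbl* in the WT-labelled library, and 0.936 for *Srm* and 0.823 for *Nop56* in the KO-labelled library. Some results whose main interval held 0 or 1 also changed side but are counted as close or moved. In cells matched on total UMIs, the log2 ratio of *Srm* went from −0.03 to 0.50 and that of *Odc1* from −0.13 to 0.16. In the KO-labelled library the *Myc* ratio of *Fbl* went from 0.849 to 1.46 in cells with 1000 or more genes. That of *Nop58* went from 0.669 to 1.27 at 2000 UMIs.

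The log2 ratio of the 10 genes summed, 0.13, was 0.075 over every deposited cell, 0.085 without the 5% of cells with most UMIs, 0.21 in thinned cells, 0.30 in cells with 1000 or more genes and 0.50 in cells matched on total UMIs. In the WT-labelled library the summed *Myc* ratio, 1.89, was 1.59 at 2000 UMIs, 1.52 in cells with 1000 or more genes, 1.27 weighted to clusters, 1.43 at own depth and 1.60 in the lowest draw. In the KO-labelled library it was 1.14 weighted to clusters. In the WT-labelled library the median variance over mean was 1.42 at 2000 UMIs and the median over pairs 1.41 in cells with 1000 or more genes. Thinning gave list medians of 0.22 for box C/D, 0.37 for box H/ACA and −0.020 for mitochondrial genes. With genes in 5% of cells they were 0.084 for nucleolar chaperones, 0.057 for ribosome assembly and 0.090 for all growth lists. Of the 10 genes most like *Myc*, 3 were shared at own depth. The causes were not tested. With 1 library per genotype, the spread between leukemias is unknown, and *Myc*, *Odc1* and *Nop58*, with under 600 UMIs per library, limit any single-gene reading.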

Other observations

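Among the 93 other growth genes with 100 or more UMIs in each library, shorter transcripts had higher log2 ratios of KO over WT. Of 38 genes whose longest transcript is under 2000 bases, 31 were above 0, with a median of 0.24, and of 55 longer ones 30 were above 0, with a median of 0.03. Across these genes, which are not independent replicates, Pearson's r with length was −0.30 and Spearman's rho −0.36. Over robust genes r was −0.12, with medians of 0.12 and 0.03. Of these, 897 of 1377 shorter and 735 of 1326 longer ones were above 0. Of the members, 3 of 5 shorter and 3 of 5 longer ones were above 0. Among the members, *Ncl*, with the lowest ratio, has a longest transcript of 8202 bases and *C1qbp*, with the highest, of 1175 bases, whereas *Nop58* has 9507 bases and a log2 ratio of 0.21. The split was chosen after values were seen, and its cause was not tested.

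In the KO-labelled library, thinned cells with an *Xist* UMI held 22.3 *Myc* UMIs per 1000 cells (8.19 to 48.5) and cells with a Y-linked UMI 51.9 (29.0 to 85.6), with overlapping intervals. The other 9 members summed to 1606 and 1426 UMIs per 1000 cells in the same classes. In the WT-labelled library these classes (819 and 39 cells) held 20.8 (12.1 to 33.2) and 76.9 (15.9 to 225) *Myc* UMIs per 1000 cells and 1470 and 1487 UMIs of the other 9 members.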
